A study of Mus musculus with 23 samples.

Results

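The 10 genes described here are markers of intraepithelial lymphocytes, the T cells that live between the cells of the gut epithelium. They are Ptprc, Cd3e, Cd3g, Cd8a, Itgae, Cd7, Gzma, Gzmb, Nkg7 and Ccl5, taken as the rows of the count table whose symbol equals one of these names. They make up 10 of the 24917 gene loci in the table, and all 10 passed the filter on low counts in every fit. RNA was sequenced from the colonic epithelium of male C57BL/6 mice (C57BL/6J in the study's methods) in 23 samples. Feeding began when the mice were 6 weeks old and lasted 43 weeks. LF mice ate a diet with 10% fat and HF mice a diet with 60% fat throughout, whereas HF-LF mice were moved from the 60% to the 10% diet after 15 weeks and stayed on it for another 28. Sequencing was labelled as 2 batches, with 4 LF, 3 HF and 4 HF-LF samples in batch 1 and 4 LF, 3 HF and 5 HF-LF samples in batch 2. The labels do not say what a batch was, and the methods give fewer mice per regimen than the 8 LF, 6 HF and 9 HF-LF samples of the batches together. It was therefore not established that the samples of both batches are separate mice, and the p-values measure the spread between these samples. The 10 genes were chosen as markers of the same cells and read in the same libraries. Counts of them set beside shares of all genes are therefore not counts of separate observations.

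Intraepithelial lymphocytes are mostly CD8-bearing T cells with either an alpha-beta or a gamma-delta receptor. They are held in the epithelium by the integrin alphaE beta7, which binds E-cadherin on epithelial cells, and they carry cytolytic granules ready for release. Epithelial cells in turn make the cytokine IL-15 and other ligands on which these lymphocytes depend. The genes below follow these roles, from the leukocyte phosphatase Ptprc through the T cell receptor complex, the co-receptor and the integrin to the granule proteins and the chemokine Ccl5.

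The epithelial label held in the counts. The keratin Krt8 had a median of 5720 CPM over the samples and the adhesion molecule Epcam 1840 CPM, where CPM is the count of a gene scaled to equal library totals by TMM. Gene counts summed to 29189922 in the smallest and 65320947 in the largest library, and 3 counts stood for 0.0459 to 0.103 CPM, a floor that covers counting error only. The 10 lymphocyte genes were rare in these libraries. Ptprc had between 296 and 829 counts per library and Itgae between 157 and 344, whereas each of the other 8 genes had between 3 and 131 counts. The members together summed to 17.7 to 43.4 CPM. Among defining T cell genes outside the members, Cd4 had a median of 0.0687 CPM and Cd8b1 a median of 0.0603 CPM with no count in 2 samples, while constant-region genes of the gamma-delta receptor were not matched by symbol. Ccl19 and Ccl21a of lymphoid follicles had no count in any of the 23 samples. Other follicle genes had counts in every sample, among them Cxcl13, Ltb and Cxcr5. Their medians were 0.693, 0.526 and 0.277 CPM. In RNA from bulk tissue, fewer lymphocytes and less RNA per lymphocyte cannot be told apart.

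In LF epithelium of batch 1, the summed level of the members was 35.6 CPM on average (range 29.4 to 43.4, n = 4). It was 28.6 CPM in HF (25.5 to 34.3, n = 3) and 23.2 CPM in HF-LF epithelium (18.3 to 30.3, n = 4). In batch 2 the order was another one. The average was 21.4 CPM in LF (19 to 25, n = 4), 20.7 CPM in HF (17.7 to 23.4, n = 3) and 25.6 CPM in HF-LF epithelium (23.9 to 28.3, n = 5). LF samples of batch 1 were thus the highest of batch 1 on average, and HF-LF samples the highest of batch 2. Ptprc and Itgae made up most of each sum. In batch 2, Ptprc averaged 9.18 CPM in LF and 10.7 CPM in HF, whereas Itgae averaged 4.99 and 4.1 CPM.

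**Figure D1:**
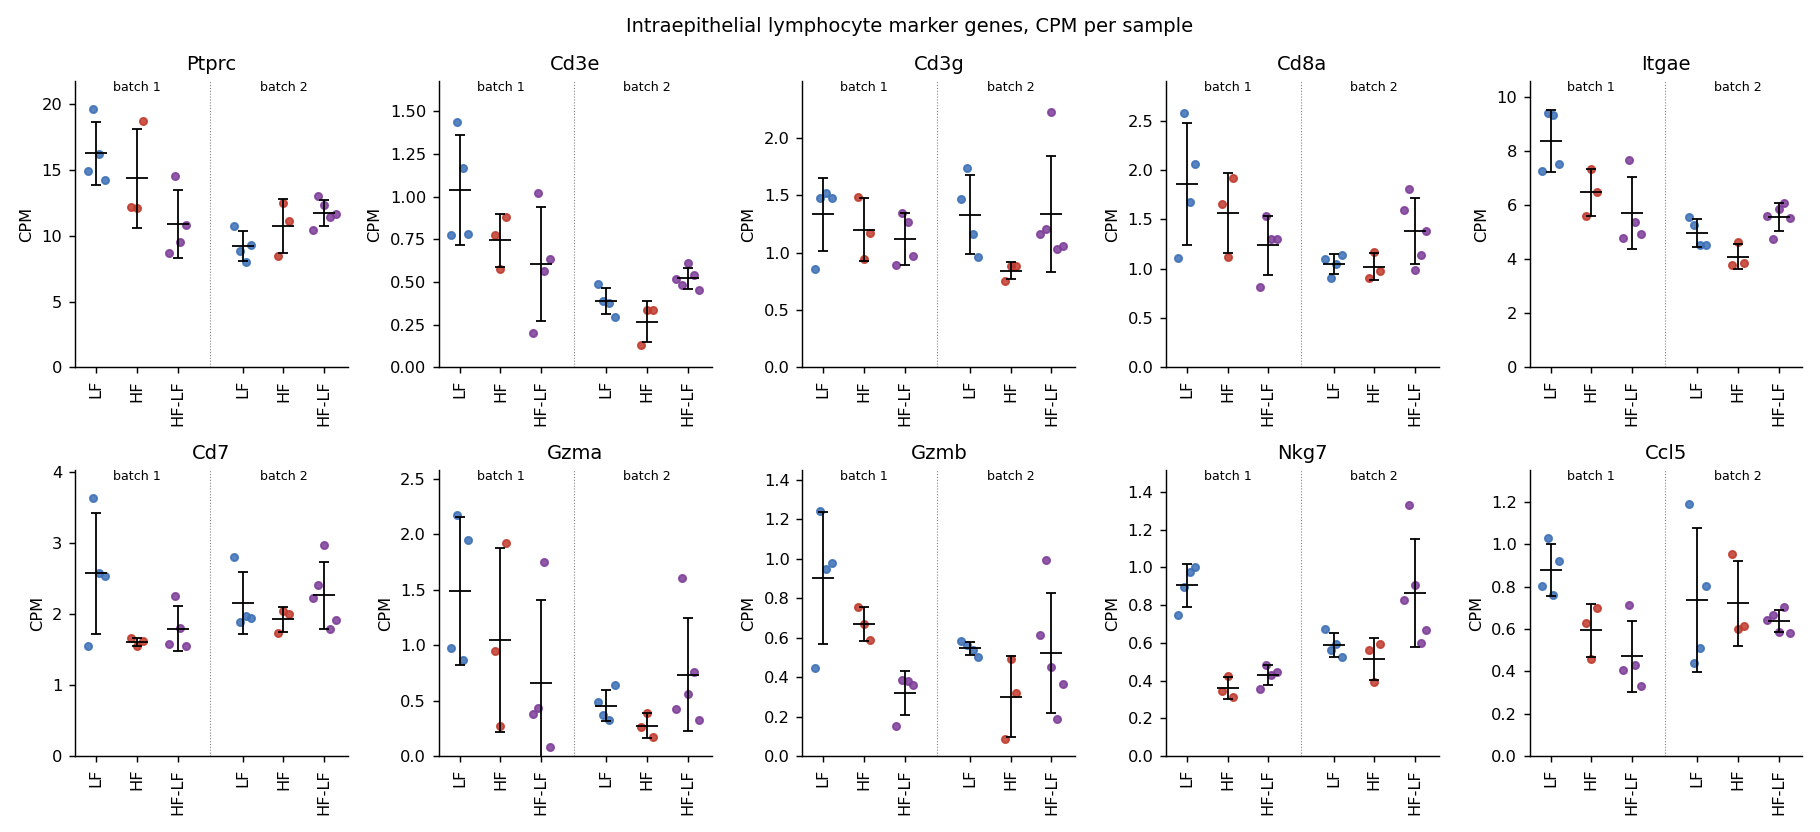
Levels of the 10 lymphocyte genes in each sample, in CPM on a linear axis that starts at 0, with 1 panel per gene. Points are samples grouped by diet and batch, and bars are group means with the SD. Ptprc and Itgae lie highest, and in LF epithelium Ptprc, Cd3e, Itgae, Gzma and Nkg7 lie lower in batch 2 than in batch 1 without overlap.

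The first comparison, HF against LF, addresses how these transcripts differ in lifelong obesity. In batch 1 the HF mean was below the LF mean for all 10 genes, with log2 fold changes from -1.33 for Nkg7 to -0.14 for Cd3g and a median of -0.44, where 50.5% of the 14428 genes tested lay below 0. By edgeR's quasi-likelihood test with Benjamini-Hochberg adjustment over all genes, no member was called, for which the fold change had to exceed 1.2 at an adjusted p under 0.05. The background was 0% of genes called, and DESeq2 called 0 of the 10 and 512 of all genes. At an unadjusted p under 0.05, 2 of the 10 were lower (Nkg7 and Cd7), against 10.2% of all genes. The HF samples lay below all LF samples for 2 genes (Nkg7 and Ccl5), against 7.33% of all genes. In batch 2, 9 of 10 genes lay below 0 (background 52%), with a median of -0.22. None was called, where 7.44% of all genes were, and DESeq2 called 0 of the 10 and 1845 of all genes. There 2 genes were lower at an unadjusted p under 0.05 (Cd3g and Itgae, background 17.1%), and 2 were lower without overlap (Cd3g and Gzmb, background 13.5%). In the fit of both batches, Nkg7 fell, the only member called among the 10, where 9.11% of all genes were called lower. A share of 1 in 10 is close to that background. DESeq2 called 2 of the 10 there (Itgae and Nkg7) and 2756 of all genes.

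The second comparison, HF-LF against HF, addresses what followed the change to the 10% diet. In batch 1, 8 of 10 lay below 0 with a median of -0.32 (background 50.7%), none was called (background 0.00693%), DESeq2 called 0 of them and 17 of all genes, and Gzmb alone had an unadjusted p under 0.05, against 6.04% of all genes. Gzmb was also the one gene that was lower without overlap (background 4.07%). In batch 2, 9 of 10 lay above 0 with a median of 0.55 (background 51.8%), and Cd3e and Itgae rose. These were 2 of 10 called higher, where 8.89% of all genes were, and DESeq2 called 1 of the 10 (Itgae) and 2463 of all genes. At an unadjusted p under 0.05, 5 of 10 were higher (Cd3e, Cd3g, Itgae, Gzma and Nkg7), against 20.3% of all genes, and 4 of 10 were higher without overlap (Cd3e, Cd3g, Itgae and Nkg7), against 14.6%. In the fit of both batches none was called (background 10.3%), DESeq2 called 0 of them and 1760 of all genes, and Nkg7 alone had an unadjusted p under 0.05 (background 18.6% higher). The comparisons of HF with LF and of HF-LF with HF share the HF samples, 3 in each batch, so that their values are set side by side only.

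The third comparison, HF-LF against LF, sets mice that had been obese against mice that had not. In batch 1 all 10 genes lay below 0 with a median of -0.68 (background 49.7%). None was called by edgeR (background 0%), and DESeq2 called 0 of them and 6 of all genes. Still, 5 were lower at an unadjusted p under 0.05 (Ptprc, Itgae, Gzmb, Nkg7 and Ccl5, background 2.79%) and 3 were lower without overlap (Gzmb, Nkg7 and Ccl5, background 1.56%). Their adjusted p in edgeR was 0.792 for each. In batch 2, 8 of 10 lay above 0 with a median of 0.26 (background 52.1%), none was called (background 0.00696%), DESeq2 called 0 of them and 16 of all genes, and 2 were higher at an unadjusted p under 0.05 (Ptprc and Nkg7, background 2.15%). Over both batches all 10 lay below 0 with a median of -0.19 (background 45.9%), none was called (background 0%), DESeq2 called 0 of them and 6 of all genes, and Ccl5 alone had an unadjusted p under 0.05, against 2.19% of all genes that were lower.

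**Figure D2:**
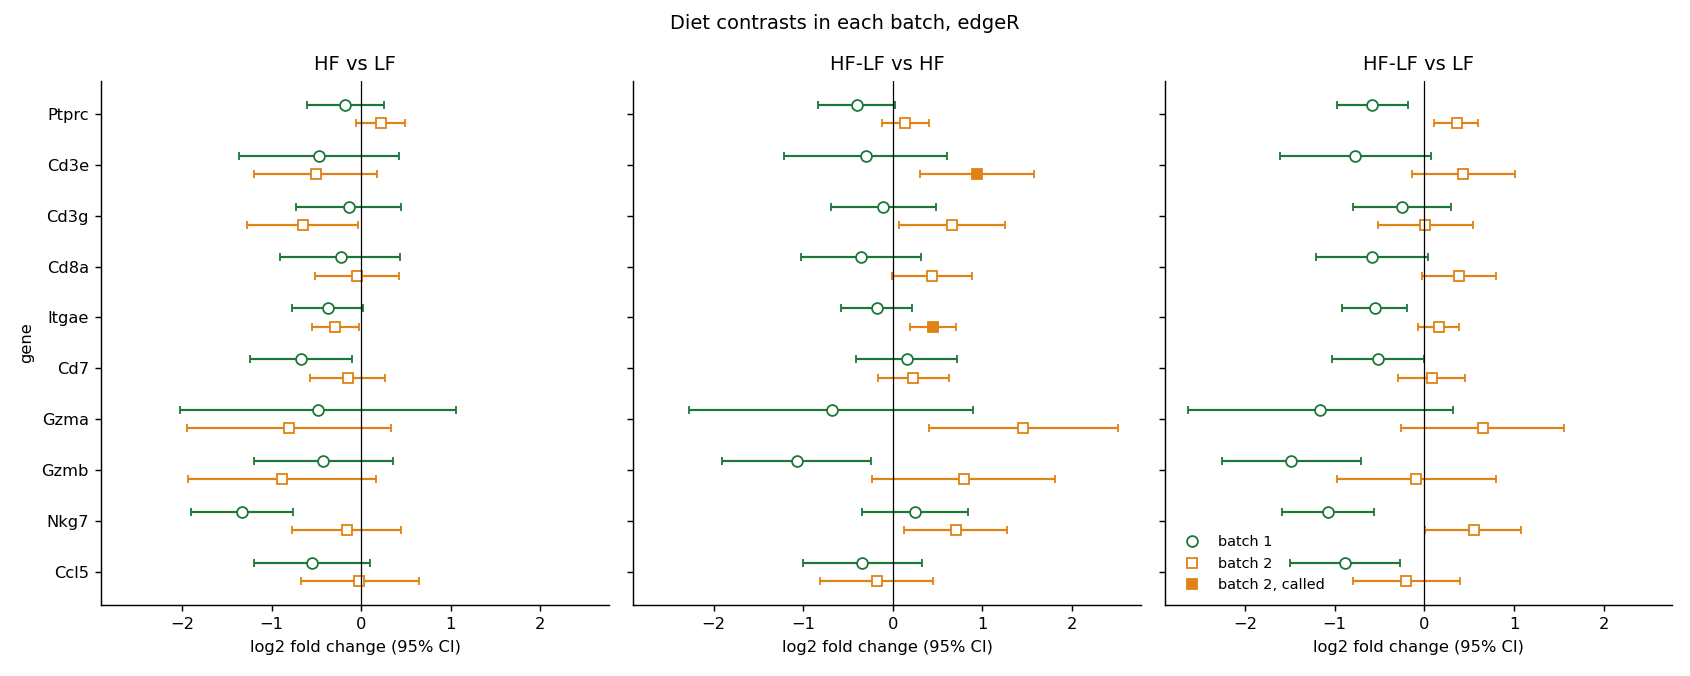
Log2 fold changes of the 10 lymphocyte genes with 95% confidence intervals from edgeR, for HF against LF, HF-LF against HF and HF-LF against LF, in batch 1 and batch 2. Points left of 0 are lower in the first-named diet. In HF-LF against LF all 10 points of batch 1 lie left of 0, whereas 8 of 10 in batch 2 lie right of it.

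Ptprc (mm10 chr1:138062859-138175305, minus strand) encodes CD45, the tyrosine phosphatase on the surface of all leukocytes. In batch 1 it was read at 14.9, 19.6, 16.2 and 14.2 CPM in LF, at 12.2, 12.1 and 18.7 CPM in HF and at 8.7, 14.5, 9.5 and 10.8 CPM in HF-LF epithelium. In batch 2 it was read at 10.7, 8.8, 7.97 and 9.29 CPM in LF, at 8.47, 12.5 and 11.1 CPM in HF and at 10.4, 13, 12.3, 11.4 and 11.6 CPM in HF-LF epithelium. HF-LF samples were the lowest diet on average in batch 1 and the highest in batch 2, and neighbouring diets overlapped in both. The log2 fold change of HF-LF against LF was -0.58 (SE 0.18, unadjusted p = 0.008, adjusted p = 0.792 in edgeR) in batch 1. In batch 2 it was 0.36 (SE 0.11, unadjusted p = 0.00694, adjusted p = 0.958 in edgeR). HF against LF gave -0.18 (SE 0.2) and 0.22 (SE 0.13) in the batches, with confidence intervals that included 0.

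Cd3e (chr9:44998743-45009590, minus strand) and Cd3g (chr9:44969572-44980431, minus strand) encode the epsilon and gamma chains of CD3, the signalling part of the T cell receptor. In batch 1, Cd3e was read at 0.776, 1.44, 1.17 and 0.781 CPM in LF, at 0.776, 0.577 and 0.879 CPM in HF and at 0.203, 1.02, 0.567 and 0.636 CPM in HF-LF epithelium. The diets overlapped there, and HF against LF gave a log2 fold change of -0.47 (SE 0.41). In batch 2, Cd3e was read at 0.489, 0.392, 0.377 and 0.298 CPM in LF, at 0.13, 0.338 and 0.336 CPM in HF and at 0.519, 0.483, 0.611, 0.543 and 0.454 CPM in HF-LF epithelium. Every HF-LF sample lay above every HF sample, while LF overlapped both. Cd3e rose from HF to HF-LF epithelium in batch 2, with a log2 fold change of 0.94 (SE 0.3, 95% confidence interval 0.3 to 1.58, adjusted p = 0.0422 in edgeR). The call was lost without any 1 of HF-LF replicates 1, 3, 4 and 5 or HF replicates 1, 2 and 3, and held without HF-LF replicate 2, the log2 fold change ranging from 0.62 to 1.18. It was also lost in edgeR without the filter on low counts (adjusted p = 0.0626) and with only the 2 diets compared (adjusted p = 0.0554), and DESeq2 gave Cd3e no adjusted p. The same contrast in batch 1 gave -0.3 (SE 0.42).

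Cd3g lies near Cd3e in the genome, without overlap of their loci. In batch 1 it was read at 0.86, 1.48, 1.52 and 1.48 CPM in LF, at 1.49, 0.942 and 1.17 CPM in HF and at 0.89, 1.35, 1.27 and 0.968 CPM in HF-LF epithelium. In batch 2 it was read at 1.47, 1.74, 1.16 and 0.961 CPM in LF, at 0.758, 0.884 and 0.887 CPM in HF and at 1.16, 1.21, 2.23, 1.03 and 1.06 CPM in HF-LF epithelium. The HF samples of batch 2 lay below all samples of both other diets, whereas the diets of batch 1 overlapped. In batch 2 the log2 fold change was -0.65 (SE 0.29, adjusted p = 0.131 in edgeR) for HF against LF. For HF-LF against HF it was 0.66 (SE 0.28, adjusted p = 0.0961 in edgeR), and neither passed.

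Cd8a (chr6:71373427-71379171, plus strand) encodes the alpha chain of the CD8 co-receptor, which can pair with itself on intraepithelial lymphocytes. In batch 1 it was read at 1.11, 2.58, 1.68 and 2.06 CPM in LF, at 1.66, 1.12 and 1.92 CPM in HF and at 0.814, 1.53, 1.3 and 1.3 CPM in HF-LF epithelium. In batch 2 it was read at 1.1, 0.907, 1.05 and 1.14 CPM in LF, at 0.91, 1.17 and 0.979 CPM in HF and at 1.59, 1.81, 0.983, 1.14 and 1.38 CPM in HF-LF epithelium. The diets overlapped in both batches. HF against LF gave log2 fold changes of -0.23 (SE 0.31) and -0.05 (SE 0.22). Cd8b1, which encodes the beta chain, was below 0.3 CPM in all samples, with a highest value of 0.27 CPM.

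Itgae encodes the alphaE chain (CD103) of the integrin that binds E-cadherin. Itgae in batch 1 was read at 7.29, 9.42, 9.33 and 7.53 CPM in LF, at 5.59, 7.35 and 6.51 CPM in HF and at 4.81, 7.69, 5.4 and 4.95 CPM in HF-LF epithelium. Itgae in batch 2 was read at 5.57, 5.29, 4.55 and 4.53 CPM in LF, at 3.79, 4.63 and 3.87 CPM in HF and at 5.59, 4.74, 5.87, 6.1 and 5.53 CPM in HF-LF epithelium. HF-LF lay above HF without overlap in batch 2, and overlapped it in batch 1. Itgae rose from HF to HF-LF epithelium in batch 2, with a log2 fold change of 0.45 (SE 0.12, 95% confidence interval 0.19 to 0.7, adjusted p = 0.0248 in edgeR). Without HF-LF replicate 4 or any 1 of HF replicates 1, 2 and 3 the call was lost, and the log2 fold change ranged from 0.4 to 0.53 over the samples left out. In batch 1 the same contrast gave -0.18 (SE 0.18). HF against LF gave -0.37 (SE 0.18) in batch 1, -0.29 (SE 0.12) in batch 2 and -0.33 (SE 0.13, adjusted p = 0.0652 in edgeR) over both, and was not called. Without HF batch 1 replicate 2 or LF batch 2 replicate 4 the last value was called, at -0.4 and -0.36.

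The Itgae locus (mm10 chr11:73090595-73147449, plus strand) is the only one among the 10 that overlaps another gene. Gsg2, a kinase gene on the opposite strand, lies within it and shares none of its exon bases. Whether the counting used strand is not stated in the sources used here. Gsg2 had 122 to 626 counts per library, and its log2 fold change of HF-LF against HF in batch 2 was -0.32 (SE 0.11, adjusted p = 0.0556 in edgeR), of opposite sign to that of Itgae.

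Cd7 (chr11:121036749-121039478, minus strand) encodes a surface glycoprotein of T and NK cells. Cd7 in batch 1 was read at 1.55, 3.64, 2.58 and 2.54 CPM in LF, at 1.66, 1.55 and 1.62 CPM in HF and at 1.58, 2.25, 1.81 and 1.55 CPM in HF-LF epithelium. Cd7 in batch 2 was read at 2.81, 1.89, 1.97 and 1.95 CPM in LF, at 1.73, 2.05 and 2 CPM in HF and at 2.23, 2.41, 2.98, 1.79 and 1.92 CPM in HF-LF epithelium. The 3 HF samples of batch 1 lay close together, at the level of the lowest LF sample, and the diets of batch 2 overlapped. HF against LF gave a log2 fold change of -0.67 (SE 0.26, adjusted p = 0.183 in edgeR) in batch 1 and -0.15 (SE 0.2) in batch 2. Over both batches it was -0.41 (SE 0.17, adjusted p = 0.0692 in edgeR). That value passed without LF batch 1 replicate 1, at -0.47.

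Nkg7 (chr7:43437138-43438246, plus strand) encodes a membrane protein of cytolytic granules that takes part in their release. Nkg7 in batch 1 was read at 0.749, 0.894, 0.976 and 1 CPM in LF, at 0.345, 0.425 and 0.315 CPM in HF and at 0.356, 0.485, 0.432 and 0.443 CPM in HF-LF epithelium. All LF samples lay above all samples of both other diets, which overlapped each other. Nkg7 in batch 2 was read at 0.673, 0.564, 0.592 and 0.526 CPM in LF, at 0.563, 0.39 and 0.596 CPM in HF and at 0.825, 1.33, 0.904, 0.597 and 0.669 CPM in HF-LF epithelium. There the HF-LF samples lay above HF, if by little for the lowest (0.597 against 0.596 CPM), while LF overlapped both. The log2 fold change of HF against LF was -1.33 (SE 0.26, 95% confidence interval -1.9 to -0.76, unadjusted p = 0.000226, adjusted p = 0.137 in edgeR) in batch 1. That is 0.399 times the LF level, and the value missed the threshold in a contrast in which edgeR called no gene. Without HF batch 1 replicate 2 it passed, at -1.44 and an adjusted p of 0.036 in edgeR. In batch 2 the contrast gave -0.16 (SE 0.29). Over both batches Nkg7 fell in HF epithelium by 0.78 on the log2 scale (SE 0.26, 95% confidence interval -1.31 to -0.25, adjusted p = 0.0289 in edgeR). The call was lost without any 1 of LF batch 1 replicates 2, 3 and 4, HF batch 1 replicates 1 and 3 and HF batch 2 replicate 2, and the log2 fold change ranged from -0.86 to -0.67.

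Gzma (chr13:113093827-113100981, minus strand) and Gzmb (chr14:56258858-56262260, minus strand) encode granzymes, the serine proteases that cytolytic granules deliver into target cells. In batch 1, Gzma was read at 0.97, 2.17, 0.868 and 1.95 CPM in LF, at 0.949, 0.273 and 1.92 CPM in HF and at 0.382, 0.434, 1.75 and 0.083 CPM in HF-LF epithelium, the last of these from 3 counts. Gzma in batch 2 was read at 0.489, 0.368, 0.323 and 0.641 CPM in LF, at 0.26, 0.39 and 0.168 CPM in HF and at 0.428, 1.6, 0.558, 0.76 and 0.324 CPM in HF-LF epithelium. Within each diet of batch 1, Gzma had the highest coefficient of variation of the 10, from 44.7% in LF to 112% in HF-LF, and the diets overlapped in both batches. HF-LF against HF gave a log2 fold change of -0.68 (SE 0.73) in batch 1. In batch 2 it gave 1.45 (SE 0.49, adjusted p = 0.0512 in edgeR), which passed without HF-LF replicate 5, at 1.66 and an adjusted p of 0.0337.

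Gzmb in batch 1 was read at 0.444, 1.24, 0.949 and 0.977 CPM in LF, at 0.755, 0.668 and 0.586 CPM in HF and at 0.153, 0.383, 0.378 and 0.36 CPM in HF-LF epithelium. All HF-LF samples lay below all LF and HF samples. Gzmb in batch 2 was read at 0.581, 0.564, 0.538 and 0.504 CPM in LF, at 0.0867, 0.494 and 0.321 CPM in HF and at 0.611, 0.995, 0.452, 0.19 and 0.367 CPM in HF-LF epithelium. The HF samples lay below LF there, and HF-LF overlapped both. In batch 1 the log2 fold change was -1.49 (SE 0.36, adjusted p = 0.792 in edgeR) for HF-LF against LF. For HF-LF against HF it was -1.07 (SE 0.38, adjusted p = 0.412 in edgeR). In batch 2 these contrasts gave -0.09 (SE 0.41) and 0.79 (SE 0.48).

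Among the members with a promoter window, the granule genes were those whose window held the core of the RUNX binding site. RUNX3 is a transcription factor of CD8 T cells. RefSeq windows of 250 bases before the transcription start (GRCm38.p6) were present for 7 of the 10 members, all but Itgae, Cd7 and Ccl5, with a second window for Ptprc. The letters TGTGGT, or ACCACA for the other strand, stood in windows of 3 of these 7 genes, namely Gzma, Gzmb and Nkg7, and in 14% of all 32851 windows. The T-box half-site GTGTGA, on either strand, stood in 2 of 7 (Gzmb and Nkg7) and in 12.3% of all windows. Of 2 further motifs searched, the ETS core GGAAG stood in the first window of 5 of 7 genes and in 64.1% of all windows. The E-box CANNTG, where N is any base, stood in the first window of 6 of 7 and in 66.2% of all windows. The 3 windows with the RUNX core are printed 5′ to 3′ along the gene's strand, ending at the base before the start, with the core in capitals. They lie at chr13:113100982-113101231 (minus strand) for Gzma, chr14:56262335-56262584 (minus strand) for Gzmb and chr7:43436888-43437137 (plus strand) for Nkg7.
Gzma: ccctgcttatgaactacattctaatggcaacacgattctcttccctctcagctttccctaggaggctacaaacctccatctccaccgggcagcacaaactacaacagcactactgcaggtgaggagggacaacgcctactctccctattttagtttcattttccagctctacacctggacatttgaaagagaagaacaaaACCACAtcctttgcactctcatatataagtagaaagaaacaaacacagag
Gzmb: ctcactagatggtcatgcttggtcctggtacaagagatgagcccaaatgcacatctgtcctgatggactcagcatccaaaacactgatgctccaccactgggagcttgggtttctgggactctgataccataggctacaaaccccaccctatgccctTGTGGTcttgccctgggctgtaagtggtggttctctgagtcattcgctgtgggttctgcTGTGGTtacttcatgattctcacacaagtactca
Nkg7: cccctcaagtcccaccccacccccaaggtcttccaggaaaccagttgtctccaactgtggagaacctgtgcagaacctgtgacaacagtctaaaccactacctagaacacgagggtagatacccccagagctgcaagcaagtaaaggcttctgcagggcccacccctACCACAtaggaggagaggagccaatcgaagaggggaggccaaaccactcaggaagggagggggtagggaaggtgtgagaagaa
Gzma held 1 core, Gzmb 2 and Nkg7 1. A match of letters is a description of the window and shows no binding.

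Ccl5 (chr11:83525779-83530518, minus strand) encodes RANTES, a chemokine stored and released by effector T cells. Ccl5 in batch 1 was read at 0.804, 1.03, 0.759 and 0.921 CPM in LF, at 0.626, 0.456 and 0.699 CPM in HF and at 0.407, 0.715, 0.432 and 0.332 CPM in HF-LF epithelium. All LF samples lay above all samples of both other diets. Ccl5 in batch 2 was read at 1.19, 0.441, 0.512 and 0.801 CPM in LF, at 0.953, 0.598 and 0.612 CPM in HF and at 0.642, 0.664, 0.585, 0.705 and 0.583 CPM in HF-LF epithelium. The diets overlapped there, with the widest range in LF. HF-LF against LF gave a log2 fold change of -0.89 (SE 0.28, adjusted p = 0.792 in edgeR) in batch 1 and -0.2 (SE 0.28) in batch 2. Over both batches it was -0.52 (SE 0.2, unadjusted p = 0.0156, adjusted p = 0.98 in edgeR), the lowest p of the 10 in that contrast.

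Compared per kilobase of exon, the members fell in an order that only in part stood beyond the spread of the samples. In LF epithelium of batch 1, Ptprc led with 3.17 ± 0.468 CPM per kb (SD, n = 4), followed by Cd7 with 2.62 ± 0.869 and Itgae with 2.18 ± 0.296. Ccl5 (1.65 ± 0.229), Gzma (1.48 ± 0.662), Cd3g (1.3 ± 0.31) and Nkg7 (1.03 ± 0.129 CPM per kb) came next. Cd3e (0.713 ± 0.221), Gzmb (0.628 ± 0.232) and Cd8a (0.593 ± 0.198 CPM per kb) were lowest. Of neighbours in this order, Itgae and Ccl5 as well as Nkg7 and Cd3e differed by more than the SD of either, and the other pairs did not. In LF epithelium of batch 2, Cd7 (2.19 ± 0.446 CPM per kb) stood above Ptprc (1.8 ± 0.224 CPM per kb), and Cd3e (0.266 ± 0.0536 CPM per kb) was lowest.

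The diet effect on these genes was then compared between the batches as an interaction in one fit of all 23 samples. For HF-LF against LF, the log2 fold change of Nkg7 was higher in batch 2 than in batch 1 by 1.61 (SE 0.32, unadjusted p = 5.12e-05). That of Ptprc was higher by 0.92 (SE 0.22, unadjusted p = 0.000379) and that of Itgae by 0.7 (SE 0.19, unadjusted p = 0.00148). In this contrast 7 of 10 members had an unadjusted p under 0.05, where 7.58% of all 14385 genes had one. For HF-LF against HF it was 6 of 10 (background 7.68%), and for HF against LF 1 of 10 (Nkg7, 1.16, SE 0.36, unadjusted p = 0.00409, background 6.56%). No gene passed adjustment in any of the 3 contrasts (edgeR, background 0%), and the adjusted p of Nkg7 was 0.363 for HF-LF against LF. The contrasts share samples, and the members share cells and libraries, so these counts are not separate observations.

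Levels of the batches were then compared within each diet, on 1 TMM scale over both. Ptprc ran from 14.4 to 19.7 CPM in LF of batch 1 and from 7.88 to 10.5 CPM in LF of batch 2. In LF, 5 of the 10 members were lower in batch 2 without overlap, namely Ptprc, Cd3e, Itgae, Gzma and Nkg7, where 12.1% of all genes were. In HF epithelium 4 were lower (Cd3e, Cd3g, Itgae and Gzmb, background 16.2%) and Cd7 was higher (background 14.7%). In HF-LF epithelium none was lower (background 8.2%) and Nkg7 was higher (background 6.49%), at 0.59 to 1.31 CPM against 0.365 to 0.486 CPM. What distinguishes the batches is not given in the labels.

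Markers of smooth muscle, which lies beneath the epithelium, also differed between diets on average. Of 8 such genes, Actg2 was called lower in HF against LF of batch 2 (background 7.44% in either direction), and none was called in any other contrast. In HF against LF of batch 2, 7 of the 8 were lower at an unadjusted p under 0.05 in edgeR (background 17.1%). There 6 of the 8 were lower without overlap (background 13.5%). Over the 8, the median log2 fold change was 0.16 for HF against LF, 1.76 for HF-LF against HF and 1.95 for HF-LF against LF in batch 1. In batch 2 it was -2.31, 1.02 and -1.09. The 8 genes summed to 14.7 to 28.5 CPM in LF, 10.1 to 26.8 in HF and 15.7 to 69.7 CPM in HF-LF epithelium of batch 1. They summed to 19.4 to 51.8 CPM in LF, 16.7 to 21.3 in HF and 17.7 to 34.1 CPM in HF-LF epithelium of batch 2. Of these sums, Smtn alone averaged 17.3 CPM in LF and 15.3 CPM in HF of batch 2. In batch 1 the lymphocyte genes were lowest and the muscle genes highest in HF-LF, and in batch 2 the lymphocyte genes were highest in HF-LF and the muscle genes in LF. The summed level of 12 epithelial markers was 27600 to 43100 CPM with median log2 fold changes from -0.12 to 0.06 within batches. The part of other tissue in the differences of the members was not tested.

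**Figure D3:**
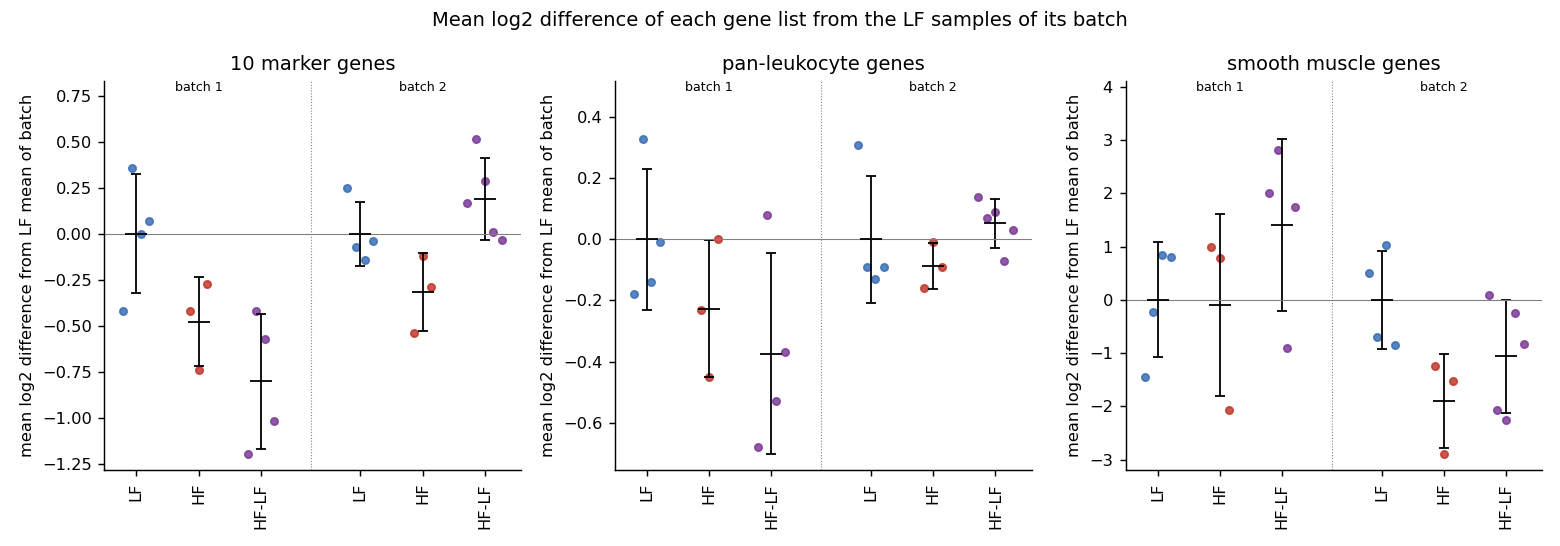
Mean log2 difference from the LF samples of the same batch, averaged over the 10 lymphocyte genes, 15 general leukocyte genes and 8 smooth muscle genes, with 1 panel per list. Points are samples by diet and batch, bars are group means with the SD, and for the lymphocyte genes the HF-LF samples run from -1.2 to -0.42 in batch 1 and from -0.03 to 0.52 in batch 2.

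Other genes of the same cells were read from gene lists. Of 20 genes of T cell receptor signalling, 13 were tested in batch 1, 11 in batch 2 and 12 in both, and none was called in any contrast, where HF against LF called 0% of all genes in batch 1, 7.44% in batch 2 and, over both, 9.11% lower and 9% higher. Their medians in batch 1 were -0.33 for HF against LF, -0.23 for HF-LF against HF and -0.35 for HF-LF against LF, and in batch 2 they were -0.11, 0.2 and 0.11, beside medians of all genes between -0.01 and 0.01. The CD3 chains outside the members, Cd3d and Cd247, had log2 fold changes of HF against LF of -0.48 and -0.53 in batch 1 and of -0.11 and 0.03 in batch 2. Of 14 genes of homing and retention, 11 were tested and none was called, with medians for HF against LF of -0.3 in batch 1 and -0.09 in batch 2. Itgb7, the beta7 partner of Itgae, had a log2 fold change of -0.59 in batch 1 and -0.37 in batch 2. Of 15 general leukocyte genes, Fyb, an adaptor protein of T cell adhesion, was called in HF-LF against HF in batch 2 (0.36, SE 0.12, adjusted p = 0.0476 in edgeR, background 8.89% higher), and the call was lost without any 1 of the 8 samples.

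Of 24 genes of cytotoxic and NK-type function, 16 were tested. Over both batches, 2 were called lower in HF against LF (background 9.11%) and 1 of them higher in HF-LF against HF (background 5.44%). Cd244, a receptor of NK cells and cytotoxic T cells, fell in HF against LF epithelium by 0.67 on the log2 scale (SE 0.21, adjusted p = 0.0233 in edgeR). It was read in batch 1 at 1.69, 2.17, 1.76 and 1.98 CPM in LF and at 0.906, 0.972 and 1.06 CPM in HF epithelium, and in batch 2 at 1.07, 0.858, 0.915 and 0.916 CPM and at 0.78, 0.78 and 0.688 CPM. HF lay below LF in both batches without overlap. The call was lost without LF batch 1 replicate 2 or HF batch 1 replicate 1, at -0.59 and -0.64. Xcl1, a chemokine of activated CD8 T cells and NK cells, fell by 0.81 in HF against LF (SE 0.28, adjusted p = 0.0345 in edgeR). It rose by 0.81 in HF-LF against HF (SE 0.27, adjusted p = 0.0438 in edgeR). HF samples held 0.338 to 0.733 CPM in batch 1 and 0.459 to 0.858 CPM in batch 2, while LF samples held 0.698 to 1.37 and 0.619 to 1.71 CPM, so that these diets overlapped. The first call of Xcl1 was lost without any 1 of LF batch 1 replicates 2 and 3, HF batch 1 replicates 2 and 3, LF batch 2 replicate 1 and HF batch 2 replicates 1 and 3. The second was lost in 11 of 15 cases and held without HF-LF batch 1 replicates 1 or 4, HF batch 1 replicate 1 or HF-LF batch 2 replicate 5.

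The epithelial side was read from 19 genes whose products reach intraepithelial lymphocytes, all of them tested. In HF against LF over both batches 2 of the 19 fell and 1 rose, and in HF-LF against HF 3 rose and 1 fell, where 9.11% and 9% of all genes were called lower and higher in the first contrast and 5.44% and 4.9% higher and lower in the second. Within batches, 2 were called higher in HF-LF against HF of batch 2, and none in any other contrast.

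Tnfrsf14 encodes HVEM, a receptor through which epithelial and lymphoid cells exchange signals. HF samples were read at 18.9, 22 and 16.8 CPM in batch 1 and at 17.9, 17.4 and 17.5 CPM in batch 2. LF samples were read at 22.8, 27.7, 23.7 and 20 CPM and at 24.5, 19.6, 23.7 and 20.7 CPM. HF lay below LF without overlap in batch 2 and overlapped it in batch 1. Tnfrsf14 fell in HF against LF by 0.31 on the log2 scale over both batches (SE 0.09, adjusted p = 0.0176 in edgeR), with -0.29 (SE 0.15) in batch 1 and -0.33 (SE 0.11) in batch 2. The call was lost without LF batch 1 replicate 2 or HF batch 1 replicate 3, at -0.26 each. It rose in HF-LF against HF by 0.35 in batch 2 (SE 0.1, adjusted p = 0.0328 in edgeR) and by 0.27 over both batches (SE 0.09, adjusted p = 0.0426 in edgeR). The batch 2 call held only without HF-LF replicate 2 or 5, and the call over both batches only without HF-LF batch 1 replicate 1 or 4, HF batch 1 replicate 2 or HF-LF batch 2 replicate 2.

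Il15 encodes the cytokine that maintains these lymphocytes. Il15 in batch 2 was read at 22.5, 27.3, 22.8 and 24.9 CPM in LF, at 21.8, 20.2 and 21.5 CPM in HF and at 29.1, 24.4, 24.6, 26 and 28.4 CPM in HF-LF epithelium. HF samples of batch 2 were the lowest, without overlap with either other diet. Il15 in batch 1 was read at 30.8, 31.3, 29.3 and 24.5 CPM in LF and at 25.7, 28.4 and 14.8 CPM in HF epithelium. HF-LF epithelium held 23.5, 34, 24.8 and 28.4 CPM there, and the diets overlapped. Il15 rose in HF-LF against HF by 0.32 in batch 2 (SE 0.08, adjusted p = 0.0213 in edgeR), and the call was lost without HF replicate 2 or 3. In batch 1 the contrast gave 0.27 (SE 0.19). Over both batches it rose by 0.3 (SE 0.11, adjusted p = 0.0493 in edgeR), a call that held only without HF-LF batch 1 replicate 1 or 3 or HF batch 1 replicate 2. HF against LF over both batches gave -0.27 (SE 0.11, adjusted p = 0.0611 in edgeR).

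Cxcl16 encodes a membrane-bound chemokine, the ligand of CXCR6, a chemokine receptor on T cells. Cxcl16 in batch 1 was read at 7.63, 8.97, 8.24 and 7.93 CPM in LF and at 5.69, 5.29 and 5.77 CPM in HF epithelium, without overlap. Cxcl16 in batch 2 was read at 10.2, 9.58, 9.13 and 8.35 CPM in LF and at 9.79, 5.93 and 6.8 CPM in HF epithelium, where 1 HF sample lay within the LF range. Cxcl16 fell in HF against LF by 0.43 over both batches (SE 0.13, adjusted p = 0.0173 in edgeR), and not without HF batch 2 replicate 2. It rose in HF-LF against HF by 0.4 (SE 0.12, adjusted p = 0.0338 in edgeR), a call lost without any 1 of HF-LF batch 1 replicates 2 and 4, HF batch 1 replicates 1 and 3, HF-LF batch 2 replicates 1 and 3 and HF batch 2 replicates 2 and 3.

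Ulbp1, a stress ligand of the receptor NKG2D on cytotoxic lymphocytes, went the other way. In HF epithelium it was read at 2.59, 2.61 and 5.05 CPM in batch 1 and at 2.99, 2.68 and 2.94 CPM in batch 2. In LF epithelium it was read at 2.33, 2.06, 1.65 and 2.26 CPM and at 1.8, 2.5, 2.23 and 2.29 CPM. HF lay above LF without overlap in both batches. Ulbp1 rose in HF against LF by 0.55 over both batches (SE 0.15, adjusted p = 0.0135 in edgeR), and the call held without any 1 of the 14 samples, at 0.37 to 0.62. It fell in HF-LF against HF by 0.46 (SE 0.15, adjusted p = 0.0386 in edgeR), a call lost without any 1 of HF-LF batch 1 replicates 3 and 4, HF batch 1 replicate 3, HF-LF batch 2 replicate 5 and HF batch 2 replicates 2 and 3. The calls of HF against LF and of HF-LF against HF rest on the same HF samples in each of these genes.

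**Figure D4:**
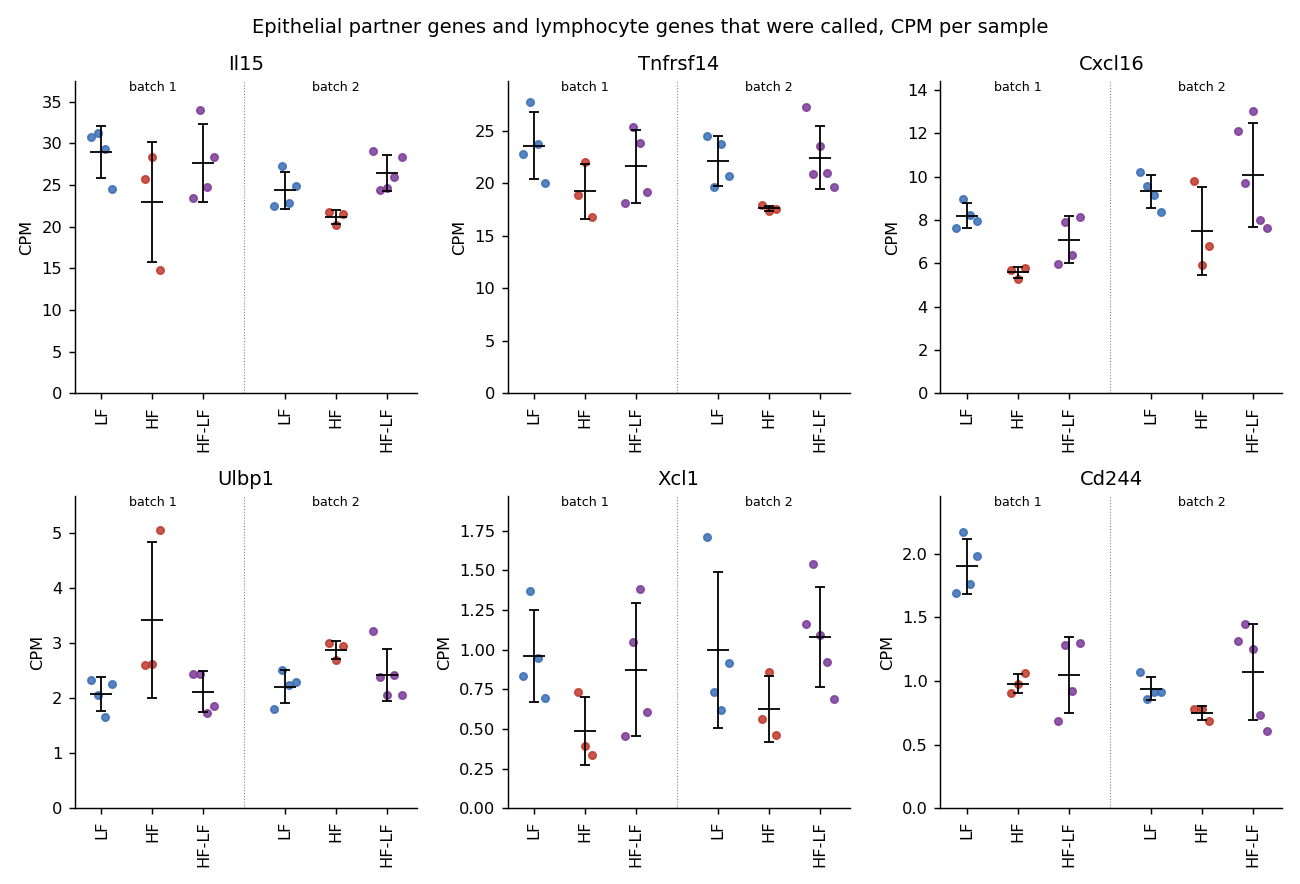
Levels in each sample of Il15, Tnfrsf14, Cxcl16, Ulbp1, Xcl1 and Cd244, in CPM on a linear axis that starts at 0, by diet and batch. Points are samples and bars are group means with the SD, and HF samples lie lowest on average for Il15 and Tnfrsf14 and highest for Ulbp1 in both batches.

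Within groups, samples high in 1 member tended to be high in others in batch 1, and for only some members in batch 2. Correlations of a member's deviation from its group mean with the mean deviation of the other members ran from 0.31 for Nkg7 to 0.88 for Cd8a over the 11 samples of batch 1. They ran from 0.01 for Itgae and Ccl5 to 0.76 for Ptprc over the 12 samples of batch 2. Between these lay Cd3g (0.22), Cd8a and Gzma (0.36 each), Cd3e (0.41), Nkg7 (0.43), Gzmb (0.59) and Cd7 (0.73). The points share a library and its depth, and the values are a description. Of 14170 other genes, the one most like the members by the lower correlation of the 2 batches was Rgs1, a regulator of G protein signalling of leukocytes (0.86 and 0.82). Ctsw (0.77 and 0.83), the cathepsin of cytotoxic lymphocytes, Il2rb (0.84 and 0.75), the receptor chain shared by IL-2 and IL-15, and Zap70 (0.73 and 0.83), the kinase of the T cell receptor, were among the first 10, as was Rac2 (0.73 and 0.81). The other 5 were Zwint (0.81 and 0.82), Fam83f (0.77 and 0.79), Fam203a (0.75 and 0.75), Cdk9 (0.8 and 0.71) and Apcdd1 (0.71 and 0.75). In all, 112 genes had a lower correlation above 0.5 and 12 above 0.7. Rgs1 fell in HF against LF over both batches by 0.63 on the log2 scale (SE 0.23, adjusted p = 0.0486 in edgeR), and the call held only without HF batch 1 replicate 3 or LF batch 2 replicate 3 or 4.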

How the data were processed

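Per the labels and the study's methods, the authors trimmed adapters with cutadapt 1.2.1, mapped reads from stranded total RNA libraries depleted of ribosomal RNA to mm10 with STAR 2.5 and deposited counts per gene from featureCounts 1.5.0-p1, without normalization. Epithelium had been taken from the whole colon with 5 mM EDTA. How strand and multimapping reads were treated is not given in the sources used here. For the fits, edgeR 4.0.16 under R 4.3.3 was used with TMM factors, filterByExpr and the quasi-likelihood test, the 3 diets in one fit for batch 1 (14428 genes), batch 2 (14377) and both with batch as covariate (14385). The thresholds were 0.05 for p adjusted over all genes by Benjamini-Hochberg and 1.2 for the fold change. DESeq2 1.42.0 was an alternative. Lengths are exon unions of the GENCODE annotation of mm10.

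The members and the gene lists were chosen with earlier results of these data known. All members are named. List genes were named where called, up to 5 per list and contrast, or the first defining genes where none was. Likeness ranked genes by the lower Pearson r of the batches. Scripts were tested on simulated counts. Same-numbered samples of different diets had correlated deviations (r over 0.1) in 4 of 10 pairs in each batch. Differently numbered samples had them in 8 of 30 pairs of batch 1 and 7 of 37 of batch 2. Same-numbered samples were not treated as pairs in the main fits, and a link between them was not excluded.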

Additional observations from a re-analysis of the deposited data

Results flagged for a closer look

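In 4 of the 40 combinations of member and group with at least 4 samples, 1 sample stood apart from the rest by Dixon's ratio, where chance gives about 1 in 20. Cd3g was lowest in LF batch 1 replicate 1, at 0.86 CPM against 1.48 to 1.52 in the others. It was highest in HF-LF batch 2 replicate 3, at 2.23 CPM against 1.03 to 1.21. Cd7 was highest in LF batch 2 replicate 1, at 2.81 CPM against 1.89 to 1.97. Gzmb was lowest in HF-LF batch 1 replicate 1, at 0.153 CPM against 0.36 to 0.383. No explanation of these samples was tested.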

How the results depend on the processing

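Of the members' results, 453 of the 480 values under alternatives other than leaving out a sample kept direction and side of the threshold, as did 869 of the 920 that left out 1 sample. DESeq2 gave no adjusted p for 16. The count of members called in HF-LF against HF of batch 2 (2) became 1 without the low-count filter (Cd3e at an adjusted p of 0.0626), 1 with DESeq2, which gave Cd3e no adjusted p, 1 with only the 2 diets compared, and 5 with the replicate number as a block, which added Cd3g, Gzma and Nkg7. That of HF against LF over both batches (1) became 2 with DESeq2, 2 with same-numbered samples summed and 2 with only the 2 diets compared. Ptprc in HF against LF over both batches changed sign to -0.02 with the block and -0.01 with summed samples, and Ccl5 in HF against LF of batch 2 to 0.06 with the block. Whether a shared number marks a link between samples was not settled by so few pairs. Median correlations of same-numbered samples were 0.08 within batch 1, 0.08 within batch 2 and -0.01 between batches. Those of differently numbered samples were -0.03, -0.04 and 0. Without 1 sample, the calls ranged from 0 to 1 in HF against LF of batch 1, 0 to 2 in HF-LF against HF of batch 2, 0 to 2 in HF against LF over both, and stayed at 0 in the other comparisons. Signs changed in these ranges: in HF against LF, Ccl5 -0.26 to 0.29 (batch 2), Cd3g -0.33 to 0 (batch 1), Cd8a -0.14 to 0.02 (batch 2) and Ptprc -0.09 to 0.1 (both). In HF-LF against HF they were Ccl5 -0.3 to 0.07 (batch 2), Cd3g -0.25 to 0.08 (batch 1), Gzma -1.8 to 0.05 (batch 1), Ptprc 0 to 0.25 (batch 2), Cd8a 0 to 0.19 (both) and Gzmb -0.34 to 0.07 (both). In HF-LF against LF they were, for batch 2, Ccl5 -0.38 to 0.11, Cd3g -0.26 to 0.17, Cd7 -0.05 to 0.23 and Gzmb -0.45 to 0.12, and for both batches Cd3e -0.25 to 0.01, Cd8a -0.15 to 0.05 and Gzma -0.53 to 0.03. The causes were not tested. For the called list genes and Rgs1, alternatives chosen after seeing the data lost the call in 146 of the 334 values that left out 1 sample and reversed none, and lost it in 24 of the 153 others, while DESeq2 gave no adjusted p for 4. Over all genes, those called in HF against LF of batch 1 numbered 0 with edgeR, 512 with DESeq2 and 92 with the block, and in batch 2 1069, 1845 and 2080. In HF-LF against HF of batch 1 they numbered 1 and 17 with DESeq2, and in HF-LF against LF 0 and 6 in batch 1 and 1 and 16 in batch 2. Counts of 3 to 131 per library limit 8 of the 10 members.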

Other observations

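Other cell types that the preparation could hold gave a few calls by edgeR, described as values. Derl3, of plasma cells and other secretory cells, rose in HF against LF in batch 2 (1.29, SE 0.33, adjusted p = 0.0374) and over both batches (0.72, SE 0.26, adjusted p = 0.0398), at levels of 0.108 to 0.598 CPM. Of the 6 genes of its list tested in batch 2, 4 lay below 0 with a median of -0.29, among them Igj (-1.28), the joining chain of immunoglobulins, and Pou2af1 (-0.82), which were not called. Among myeloid genes, Cd14, a receptor for bacterial lipopolysaccharide, rose in HF against LF over both batches (0.35, SE 0.1, adjusted p = 0.0129 in edgeR), and fell in HF-LF against HF by 0.38 in batch 2 and 0.42 over both. Its HF samples held 25.1 to 33.3 CPM in batch 1 and lay above all 8 others there. Of the 11 myeloid genes tested over both batches, 8 lay below 0 in HF against LF, with a median of -0.21. C1qc, a complement subunit of macrophages, fell in HF against LF by 1.67 in batch 2 and by 1.29 over both batches. Its partner subunit C1qa was not called, at 0.54 in batch 1 and 0.48 in batch 2. C1qb, another subunit, lay on the side of C1qc in batch 2, at -0.6 (SE 0.58), and was not called. Cma1, a mast cell protease, rose in HF against LF over both batches by 0.93 (SE 0.33, adjusted p = 0.0409 in edgeR). Of genes listed as stromal, Pdgfra fell by 1.2 and Vwf, listed for endothelium, by 0.49 in the same contrast. Vwf rose in HF-LF against HF by 0.44 in batch 2 and 0.39 over both. Over the samples Vwf had a median of 8.61 CPM, where Pecam1, Kdr and Cdh5 of endothelium had 5.57, 0.123 and 0.0543 CPM. Cd14 had a median of 24.3 CPM, where the next highest gene of the myeloid list, Itgam, had 4.84 CPM. Which cells the counts of Cd14 and Vwf came from was not tested. Actg2 of smooth muscle fell in HF against LF of batch 2 by 3.01. Of these, Cd14 (over both batches) and Vwf (HF against LF) kept the call without any 1 sample, while the calls of C1qc over both batches were lost in 10 of 14 cases, of Pdgfra in 10 of 14, of Derl3 in 9 of 14 and of Cma1 in 7 of 14. In batch 2 the calls of HF against LF were lost in 6 of 7 cases for C1qc, 5 for Derl3 and 4 for Actg2, and those of HF-LF against HF in 1 of 8 for Cd14 and 5 for Vwf.

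No gene of the lists of gamma-delta T cells and innate lymphoid cells (4 tested of 12 listed), of lymphoid follicles (3 of 9) or of epithelium (12 of 12) was called in any contrast.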
